A study of Mus musculus with 6 samples.

Results

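Respiratory complex I is the NADH dehydrogenase that opens the mitochondrial electron transport chain. Its subunits that are encoded in the nucleus were followed here in the mouse parotid gland, a salivary gland made largely of secretory acinar cells. The members are the protein-coding genes of the count tables whose symbol in the mm10 annotation begins with Ndufa, Ndufab, Ndufb, Ndufc, Ndufs or Ndufv followed by a digit, with assembly factors left out. This rule gave 38 of the 52636 genes listed, and 36 of the 38 passed the filter on low counts. The rule used symbols alone and no measured value, but the set was chosen with earlier results of these data known.

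The irradiated group held 3 libraries from FVB mice aged 28 days that were given 1 radiation dose of 5 Gy, and the untreated group held 3 libraries from untreated FVB mice of the same age. FVB is an inbred strain, no engineered allele is named in the labels, and the interval between radiation and collection of the glands is not given there. The labels place the dose on every sample, and it is read here as belonging to the irradiated group. They do not state that each library came from its own animal, so p-values measure the spread between libraries, which may be technical. The series sets out to relate transcripts and metabolites to the loss of gland function after radiation.

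Complex I takes electrons from NADH, passes them along a chain of iron-sulfur clusters to ubiquinone, and couples this to proton pumping across the inner mitochondrial membrane. Its L shape has a matrix arm, built from the N module that oxidises NADH and the Q module that reduces ubiquinone, and a membrane arm, built around the mitochondrially encoded ND subunits. The catalytic core is conserved from bacteria, and the accessory subunits around it support assembly and stability. In salivary glands, mitochondria are most plentiful in the striated ducts, and acinar cells also spend much ATP on secretion.

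The irradiated libraries held 14454646, 7108359 and 12127162 gene counts and the untreated ones 12787135, 12722189 and 15036193. Irradiated replicate 2 was the shallowest, with 10.01% of reads unaligned, while this share was 3.75% to 4.33% elsewhere. The acinar markers Bpifa2 and Amy1 led the tissue, at 256894 to 322079 CPM and 90395 to 116297 CPM in irradiated glands and 281977 to 344827 CPM and 91380 to 108380 CPM in untreated glands. CPM relate a gene's count to the library size after scaling by edgeR's TMM factor. Of 12885 genes tested, 45 were lower and 84 higher in irradiated glands at an adjusted p under 0.05 by edgeR's quasi-likelihood test. With library totals alone as the scale, 22 were lower and 260 higher, and the median of all genes stood at 0.14 on the log2 scale instead of -0.01.

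Transcripts of complex I were modest in amount in both groups and differed widely between subunits. The 38 genes together summed to 948.1, 846.9 and 943.2 CPM in irradiated replicates 1, 2 and 3 and to 986.1, 1086 and 1039 CPM in untreated replicates 1, 2 and 3. All 3 irradiated sums lay below all 3 untreated ones. As a share of raw gene counts, without the TMM scale, the groups overlapped, at 0.0985%, 0.0991% and 0.0901% in irradiated libraries and 0.0937%, 0.0977% and 0.104% in untreated ones. In a whole gland, fewer cells of a type and less RNA per cell cannot be told apart, and this applies to each level below.

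Levels of different subunits are compared per length, as CPM per kilobase of the annotated principal transcript. Ndufb9, an accessory subunit of the far membrane arm that binds the mitochondrial acyl carrier protein, was highest, with 83.6 ± 3.92 CPM per kilobase in irradiated glands and 101.9 ± 7.82 in untreated glands (SD, n = 3 each). Ndufa4, which carries the family's symbol but is now placed in complex IV, followed with 82.0 ± 8.02 CPM per kilobase in irradiated glands and 95.03 ± 5.08 in untreated glands. Ndufa6, another partner of the acyl carrier protein, in the matrix arm, had 57.6 ± 2.18 CPM per kilobase in irradiated glands and 74.8 ± 4.43 in untreated glands. At the low end of the genes tested, Ndufa12 had 9.53 ± 0.0911 CPM per kilobase in irradiated glands and 9.51 ± 1.07 in untreated glands, Ndufab1, the acyl carrier protein itself, had 3.82 ± 0.0966 and 4.41 ± 0.466, and Ndufb2 had 1.05 ± 0.167 and 1.24 ± 0.252, in the same order of groups. The annotated principal transcripts of Ndufab1 (3479 bases) and Ndufb2 (4371 bases) are long for such small proteins, which lowers their value per kilobase. Gm15920, a processed pseudogene 99.5% identical to Ndufa12 over 221 bases, had 126 to 222 counts per library, against 87 to 160 for Ndufa12. Whether reads of Ndufa12 were counted there was not tested. Over the 36 genes the median was 24.0 CPM per kilobase in irradiated glands and 27.7 in untreated glands. By the union of all exons as length these medians were 15.0 and 16.3, and the 3 highest genes in untreated glands were then Ndufb9, Ndufb11 and Ndufa1, and the 3 lowest Ndufb2, Ndufab1 and Ndufs1.

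**Figure D1:**
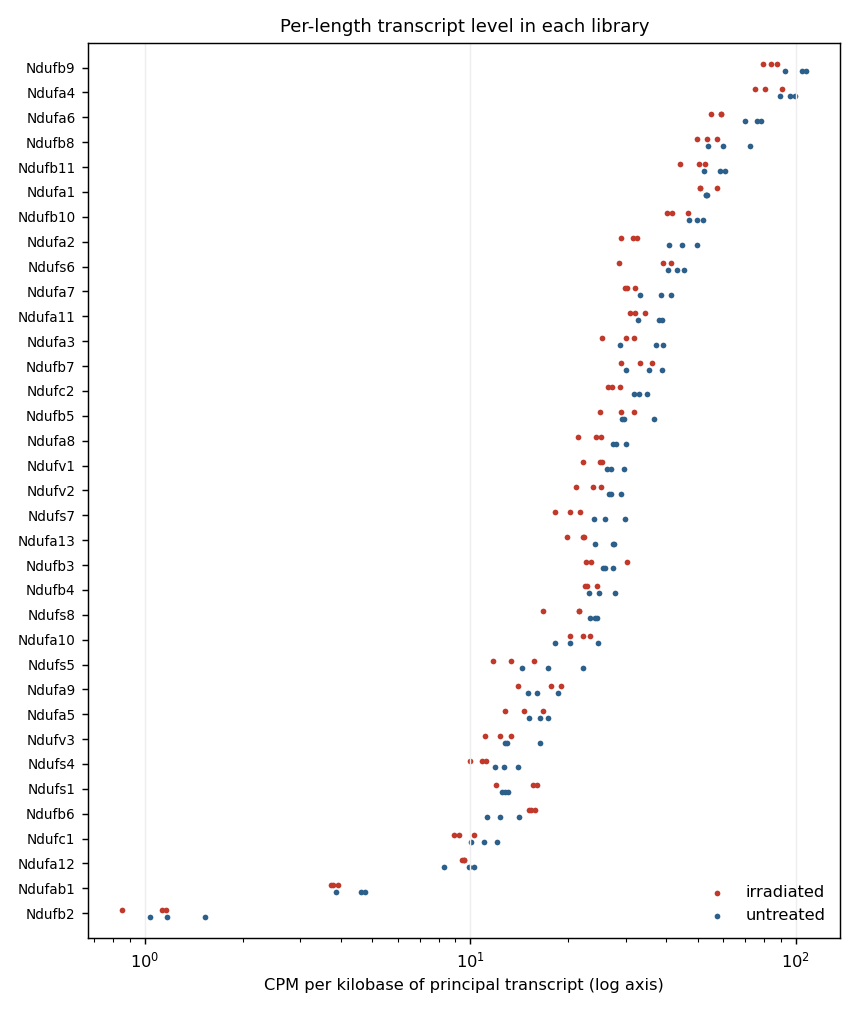
Level of each of 35 tested complex I genes, in CPM per kilobase of principal transcript on a log axis, with 1 point per library (irradiated above untreated in each row) and genes ordered by their untreated mean. Ndufb9 and Ndufa4 stand at the top and Ndufab1 and Ndufb2 apart at the bottom in both groups.

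A pair of members did not pass the filter. Ndufs3, a core subunit of the Q module (ENSMUSG00000005510; chromosome 2, 90894634 to 90904827, minus strand), had 1, 2 and 0 counts in irradiated replicates 1, 2 and 3 and 0, 0 and 4 counts in untreated replicates 1, 2 and 3. Its neighbours Kbtbd4, which overlaps it on the other strand, and Ptpmt1 were listed at 0 counts in all 6 libraries, so its level was not read from these counts. Ndufa4l2, a paralogue of Ndufa4 that hypoxia induces in other tissues, had 10, 7 and 10 counts in irradiated libraries and 5, 6 and 4 counts in untreated ones, or 0.790 ± 0.108 and 0.401 ± 0.129 CPM (SD, n = 3 each). It was not tested, and these counts are too few to read a difference from. Ndufb1-ps, which the annotation lists as a noncoding RNA and the rule therefore leaves out, had a log2 fold change of -0.05 with an edgeR adjusted p of 0.918.

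Most complex I transcripts were slightly lower in irradiated glands, and 1 passed the test. Ndufa2 fell, against 0.349% of all tested genes called lower, and 0 of 36 rose, against 0.652% called higher. Of the 36 log2 fold changes 30 were negative, as were 50.9% of all 12885, and they ran from -0.54 to 0.30 with a median of -0.21. In 13 of the 36 genes all irradiated libraries lay below all untreated ones, as in 10.6% of all genes tested, and in 1 all lay above, as in 10.6%. At an unadjusted p under 0.05 there were 12 lower members and 0 higher, where 7.46% and 7.51% of all genes stood lower and higher. The 12 became 5 with DESeq2, 7 with a replicate block, 1 with library totals as the scale, 1 with offsets for length and GC content and 0 with these offsets and the block, and 5 to 11 when 1 library was left out.

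Ndufa2, an accessory subunit of the N module with a thioredoxin-like fold (ENSMUSG00000014294; chromosome 18, 36742332 to 36744557, minus strand), had 16.6, 18.04 and 18.6 CPM in irradiated replicates 1, 2 and 3 and 23.3, 28.5 and 25.7 CPM in untreated replicates 1, 2 and 3. The groups did not overlap, and the irradiated libraries lay close together. Its log2 fold change was -0.54 (SE 0.12), a ratio of 0.687, with an edgeR adjusted p of 0.0326. The call was lost in 12 of 15 alternatives, among them leaving out any 1 library other than untreated replicate 1, at adjusted p values from 0.0524 without irradiated replicate 3 to 0.191 without irradiated replicate 1. With offsets for transcript length and GC content the log2 fold change was -0.30 and the adjusted p 0.354.

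In the rest of the N module, which holds the NADH site, 9 further genes were tested and did not pass. Ndufa6 (ENSMUSG00000022450; chromosome 15, 82350140 to 82354322, minus strand) had 34.7, 32.5 and 34.7 CPM in irradiated libraries and 46.3, 44.8 and 41.2 CPM in untreated ones. The groups were well apart, with a log2 fold change of -0.38 (SE 0.11) and an edgeR adjusted p of 0.0925. Ndufv1, the core subunit that binds NADH and flavin mononucleotide (chromosome 19, 4007384 to 4012806), had 41.6, 36.9 and 42.3 CPM in irradiated libraries and 43.7, 49.4 and 45.1 CPM in untreated ones. Ndufv2, the neighbouring core subunit with an iron-sulfur cluster (chromosome 17, 66078638 to 66101559), had 42.7, 35.8 and 40.5 CPM in irradiated libraries and 45.9, 49.2 and 45.4 CPM in untreated ones. In both, the irradiated libraries lay just below the untreated ones, with log2 fold changes of -0.19 (SE 0.11) and -0.24 (SE 0.11) and edgeR adjusted p values of 0.435 and 0.318.

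Ndufs1, the largest core subunit and the carrier of most clusters of the N module (chromosome 1, 63143596 to 63176833), stood on the other side of 0. It had 42.5, 31.99 and 41.5 CPM in irradiated libraries and 33.4, 33.9 and 34.8 CPM in untreated ones. Irradiated replicates 1 and 3 were above the untreated libraries and irradiated replicate 2 was below them, so the groups overlapped, with a log2 fold change of 0.19 (SE 0.12) and an edgeR adjusted p of 0.495. Ndufa7, an accessory subunit of the same module, had 17.0, 16.0 and 15.8 CPM in irradiated libraries and 17.6, 20.4 and 21.9 CPM in untreated ones. Its groups did not overlap, though untreated replicate 1 came close to the irradiated values, with a log2 fold change of -0.30 (SE 0.13) and an edgeR adjusted p of 0.278. Ndufs4, needed for late assembly of the N module, also had irradiated libraries below untreated ones, at -0.28. Ndufs6, a zinc-binding subunit, Ndufv3 and Ndufa12 overlapped between the groups, at -0.23, -0.19 and 0.01. Over the 10 tested genes of this module the median log2 fold change was -0.23. Groups did not overlap, with irradiated lower, in 6, against 10.6% of all genes tested.

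**Figure D2:**
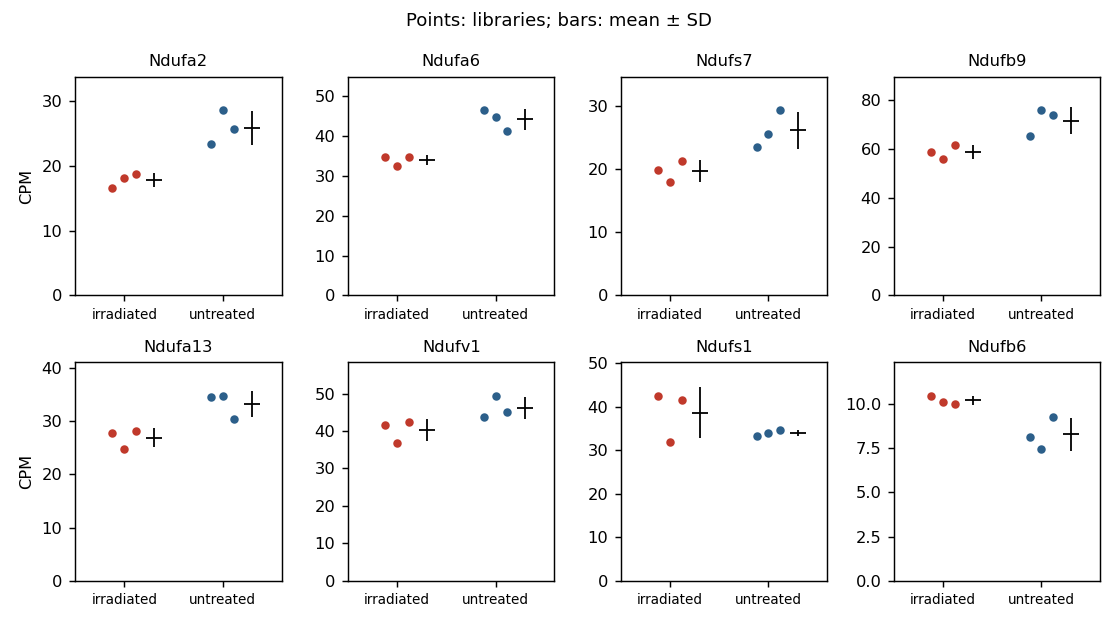
CPM in each library for 8 members, chosen after their values were seen, with irradiated libraries left and untreated libraries right and bars for mean ± SD of 3 libraries. Irradiated points lie below untreated ones for Ndufa2, Ndufa6, Ndufs7, Ndufb9, Ndufa13 and Ndufv1, the groups overlap for Ndufs1, and irradiated points lie above for Ndufb6.

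The Q module links the iron-sulfur chain to ubiquinone. Ndufs7, the core subunit with the last cluster before ubiquinone (ENSMUSG00000020153; chromosome 10, 80249121 to 80256794, plus strand), had 19.8, 17.9 and 21.3 CPM in irradiated libraries and 23.5, 25.5 and 29.3 CPM in untreated ones. The irradiated libraries all lay lower, with a log2 fold change of -0.41 (SE 0.12) and an edgeR adjusted p of 0.109. Ndufs8, a core subunit with a pair of clusters (chromosome 19, 3908863 to 3912774), had 21.6, 16.8 and 21.7 CPM in irradiated libraries and 24.6, 23.5 and 24.2 CPM in untreated ones. The gap between the groups was narrow apart from irradiated replicate 2, with a log2 fold change of -0.26 (SE 0.12) and an edgeR adjusted p of 0.331. Ndufa5 and Ndufa9, an accessory subunit that binds NADPH, overlapped between the groups, at -0.14 and 0.04. Over the 29 tested accessory subunits of the whole complex the median log2 fold change was -0.21. Irradiated libraries lay below untreated ones in 9 of them, against 10.6% of all genes tested.

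The start regions of 4 members are shown from RefSeq (GRCm38.p6), chosen after their values were seen. They come from the members whose groups do not overlap and whose windows hold a motif match. Ndufa8 and Ndufs4 also meet these conditions, both with irradiated libraries lower, and are not shown. Each window runs from 250 bases before to 50 bases after the annotated start. Capitals mark letters of 3 motifs searched on both strands: GCGCA, any base and GCGC for NRF1, CCGGAAG for GABPA and AAGATGGC for YY1, 3 factors known to act at promoters of respiratory chain genes. The windows are Ndufa6 (chr15:82354242-82354541, minus strand), Ndufs7 (chr10:80249199-80249498, plus strand) and Ndufs8 (chr19:3912725-3913024, minus strand), which lay lower in irradiated glands, and Ndufb6 (chr4:40279372-40279671, minus strand), which lay higher.
Ndufa6: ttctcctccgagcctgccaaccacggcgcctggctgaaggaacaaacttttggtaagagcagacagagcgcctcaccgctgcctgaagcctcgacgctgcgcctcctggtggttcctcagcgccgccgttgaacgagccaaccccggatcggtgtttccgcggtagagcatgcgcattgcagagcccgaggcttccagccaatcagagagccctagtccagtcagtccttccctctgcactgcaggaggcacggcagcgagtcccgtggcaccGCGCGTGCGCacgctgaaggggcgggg
Ndufs7: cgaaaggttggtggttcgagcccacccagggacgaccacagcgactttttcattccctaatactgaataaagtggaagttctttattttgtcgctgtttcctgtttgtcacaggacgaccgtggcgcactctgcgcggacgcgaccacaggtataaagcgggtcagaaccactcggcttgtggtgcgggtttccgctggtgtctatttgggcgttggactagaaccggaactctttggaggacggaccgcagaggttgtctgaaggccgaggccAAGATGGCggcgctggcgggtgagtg
Ndufs8: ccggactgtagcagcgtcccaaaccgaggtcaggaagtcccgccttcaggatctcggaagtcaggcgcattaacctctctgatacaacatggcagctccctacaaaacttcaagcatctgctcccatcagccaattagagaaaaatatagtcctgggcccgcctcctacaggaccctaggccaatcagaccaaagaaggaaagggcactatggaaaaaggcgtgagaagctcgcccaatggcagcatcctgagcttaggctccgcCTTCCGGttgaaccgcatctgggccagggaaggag
Ndufb6: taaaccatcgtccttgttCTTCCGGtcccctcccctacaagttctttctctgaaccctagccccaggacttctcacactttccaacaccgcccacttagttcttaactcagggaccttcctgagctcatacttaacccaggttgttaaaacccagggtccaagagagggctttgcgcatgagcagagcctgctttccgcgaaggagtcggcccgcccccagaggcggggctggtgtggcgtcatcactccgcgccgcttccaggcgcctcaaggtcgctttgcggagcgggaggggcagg

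In these windows the letters marked are an NRF1 match after the start of Ndufa6, a YY1 match after the start of Ndufs7, a GABPA match after the start of Ndufs8 and a GABPA match before the start of Ndufb6. Of the 38 members 33 had a window, 35 windows in all, so windows are not separate genes. The windows of Ndufa5 overlap and hold the same NRF1 letters, which are thus counted more than once. NRF1 letters stood in 22.9% of the members' windows and in 4.60% of all 32851 windows, YY1 letters in 20.0% and 2.75%, GABPA letters in 11.4% and 8.86%, and at least 1 of the 3 in 51.4% and 14.7%, with members first in each pair. The members' windows were also richer in G and C, with a median of 59.0% against 52.7%. A match is a run of letters and not a site of binding.

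Module medians of the log2 fold change in the membrane arm were -0.27 in ND1, -0.20 in ND2, -0.15 in ND4 and -0.21 in ND5, beside -0.23 in the N module and -0.14 in the Q module of the matrix arm, and differences between modules were not tested. In the ND1 module, next to the ubiquinone site, Ndufa13 (chromosome 8, 69894180 to 69902558), also known as Grim19 for a role in cell death, had 27.8, 24.8 and 28.1 CPM in irradiated libraries and 34.4, 34.7 and 30.3 CPM in untreated ones. The irradiated libraries all lay lower, with a log2 fold change of -0.30 (SE 0.11) and an edgeR adjusted p of 0.199. Ndufa8 lay lower in every irradiated library too, at -0.26, and Ndufa3 overlapped, at -0.27. In the ND2 module, Ndufs5 had 7.99, 10.7 and 9.07 CPM in irradiated libraries and 11.8, 9.79 and 15.1 CPM in untreated ones. Its groups overlapped, with the second largest fall in size among the 36, a log2 fold change of -0.42 (SE 0.18) and an edgeR adjusted p of 0.268. BC002163, a processed pseudogene 99.4% identical to Ndufs5 over 319 bases, had 65 to 165 counts per library. Ndufc2, a membrane subunit of the same module, had 18.04, 18.6 and 19.7 CPM in irradiated libraries and 22.5, 23.8 and 21.7 CPM in untreated ones. These groups did not overlap, at -0.27 (SE 0.12) and an edgeR adjusted p of 0.273. Ndufc1 and Ndufa11 stood at -0.23 and -0.18 with overlap.

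Without offsets for length and GC content, Ndufa1 and Ndufa10 of the ND2 module showed little difference. Ndufa1, a small membrane anchor, had 24.0, 21.3 and 21.3 CPM in irradiated libraries and 22.2, 22.2 and 22.3 CPM in untreated ones, a log2 fold change of 0.00 (SE 0.11). Ndufa10, a subunit related to nucleoside kinases, had 47.3, 41.0 and 44.8 CPM in irradiated libraries and 36.8, 49.7 and 40.9 CPM in untreated ones, with untreated replicate 2 the highest of all 6. Its log2 fold change was 0.07 (SE 0.12). With these offsets Ndufa1 stood at 0.27 (SE 0.13) and Ndufa10 at 0.10 (SE 0.14), and neither was called.

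In the far membrane arm, the ND4 and ND5 modules, Ndufb9 (chromosome 15, 58933756 to 58939488) had 58.9, 56.0 and 61.6 CPM in irradiated libraries and 65.5, 75.9 and 73.8 CPM in untreated ones. The groups did not overlap, with a log2 fold change of -0.29 (SE 0.11) and an edgeR adjusted p of 0.193. Ndufb10 also had irradiated libraries below untreated ones, at -0.21, while Ndufb2, Ndufb3, Ndufb4, Ndufb5, Ndufb7, Ndufb8, Ndufb11 and Ndufab1 overlapped at -0.24 to -0.04. Among these, Ndufb11 had 47.9, 40.2 and 45.7 CPM in irradiated libraries and 47.4, 53.3 and 55.0 CPM in untreated ones, overlapping through irradiated replicate 1. Ndufab1 had 13.7, 13.0 and 13.2 CPM in irradiated libraries and 13.5, 16.5 and 16.0 CPM in untreated ones. Ndufb2 had 5.06, 3.73 and 4.92 CPM in irradiated libraries and 5.10, 4.55 and 6.67 CPM in untreated ones. Ndufb6 went the other way: it had 10.5, 10.1 and 10.02 CPM in irradiated libraries and 8.15, 7.43 and 9.27 CPM in untreated ones. It was the single member with every irradiated library above every untreated one, with a log2 fold change of 0.30 (SE 0.16) and an edgeR adjusted p of 0.421, and it rests on 84 to 157 counts per library. The exons of Ndufb6 overlap those of Smim27 on the other strand over 257 of 659 bases, and Smim27 had 4 to 10 counts in irradiated libraries and 8 to 15 in untreated ones. Ndufa4, outside the modules, had 55.3, 45.7 and 49.0 CPM in irradiated libraries and 54.6, 60.8 and 58.5 CPM in untreated ones, overlapping through irradiated replicate 1, at -0.21 (SE 0.11).

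**Figure D3:**
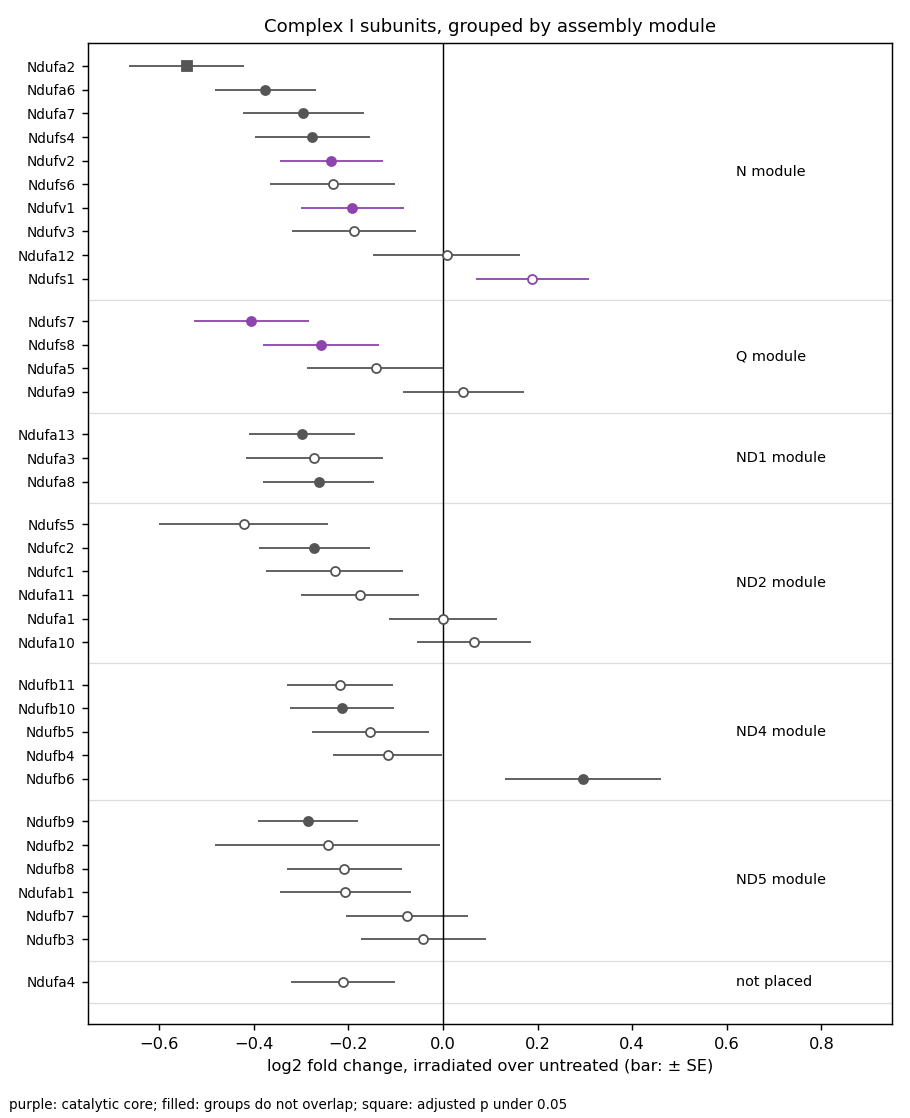
Log2 fold change, irradiated over untreated, with SE bars for 35 tested genes by assembly module. Purple marks core subunits, filled symbols mark genes whose groups do not overlap, and the square marks Ndufa2, the 1 gene called, at -0.54, with Ndufb6 at the other end at 0.30.

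The libraries contributed unequally. The median deviation of the 36 genes from their untreated mean, on the log2(CPM + 0.5) scale, was -0.14, -0.29 and -0.18 in irradiated replicates 1, 2 and 3 and -0.07, 0.07 and 0.01 in untreated replicates 1, 2 and 3. Irradiated replicate 2 held the lowest value of all 6 for 23 of the 36 genes, against 7 and 3 for irradiated replicates 1 and 3. It was the library of lowest depth and lowest alignment, and it had the largest TMM factor, 1.17 against 0.900 to 1.04 elsewhere. A larger factor lowers CPM, and as a share of raw gene counts its members stood at 0.0991%, the highest irradiated share. The part of depth, alignment and scale was not tested. Untreated replicate 2 held the highest for 16. Without irradiated replicate 2 the median log2 fold change of the members was -0.15, with 29 of 36 negative, and without untreated replicate 2 it was -0.19, with 30 negative. Within a group the members' CPM varied by a median coefficient of variation of 8.25% in irradiated and 8.51% in untreated glands.

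**Figure D4:**
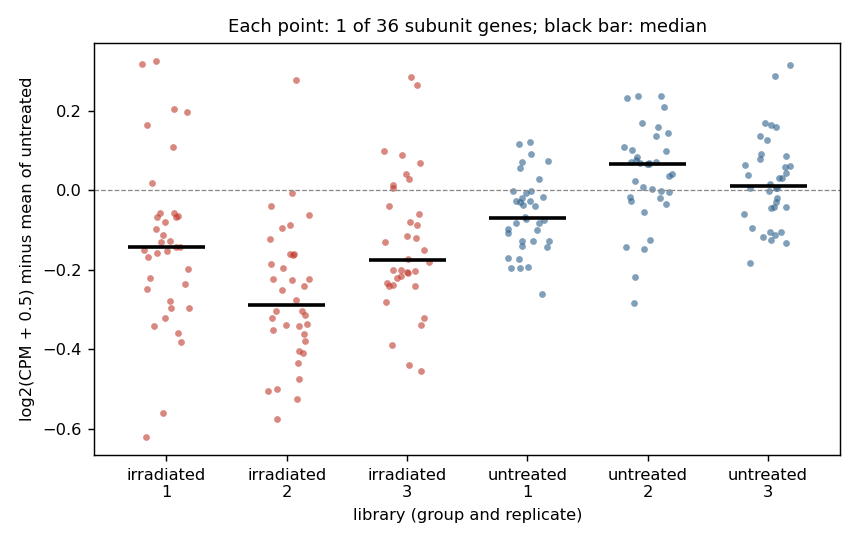
Deviation of each of 36 complex I genes from its untreated mean, as log2(CPM + 0.5), in 3 irradiated (left) and 3 untreated (right) libraries, with black bars for medians. The irradiated medians are -0.14, -0.29 and -0.18 and the untreated ones -0.07, 0.07 and 0.01.

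Complex I genes have short transcripts, and short transcripts as a class were lower in irradiated glands. Of the 36 members, 27 lay in the shortest of 5 equal bins of all tested genes by longest transcript, up to 1820 bases. In that bin the median log2 fold change was -0.23 for the 27 members and -0.17 for all 2574 genes, and irradiated libraries lay below untreated ones in 13 of the 27 members and in 20.8% of all genes of the bin. In the next bin the medians were -0.08 for 5 members and -0.06 for all genes. The bins of 2839 to 3872 bases and 3873 to 5265 bases held 2 members each, with medians of -0.18 and -0.16. All genes of these bins had medians of 0.00157 and 0.04, and the longest bin held 0 members. Bins go by the longest annotated transcript. Ndufb5 has a longest transcript of 3127 bases and a principal one of 1079, and Ndufb7 has 4435 and 623. Ndufab1 and Ndufb2, also in these bins, have principal transcripts of 3479 and 4371 bases. Which transcripts the glands used was not tested, so these values cannot show how long complex I transcripts differed. With offsets for length and GC content fitted in each library, the members' median was -0.08 and that of all genes -0.04, 26 of 36 members were negative, and 0 were called. With library totals as the scale the members' median was -0.07 and that of all genes 0.14. A change of scale moves all genes by nearly the same amount, so the gap between these medians cannot test the members' shift. The part of transcript length in the members' shift was not tested beyond these values.

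**Figure D5:**
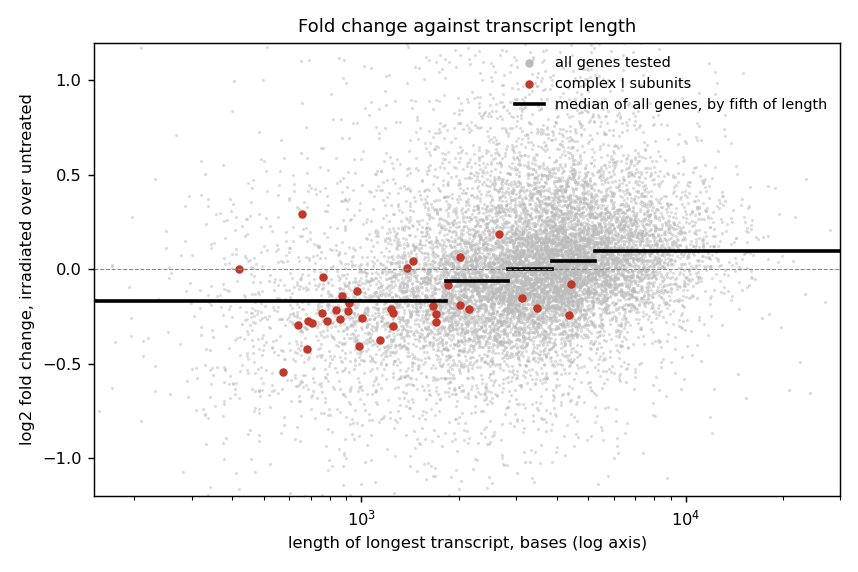
Log2 fold change, irradiated over untreated, against the length of the longest transcript in bases (log axis) for all tested genes (grey) and complex I genes (red), with black bars for the median of all genes in each of 5 length bins. The axes leave out genes beyond 1.2 on the log2 scale and beyond the plotted lengths. The bar stands at -0.17 in the shortest bin, where most complex I genes lie, and at 0.10 in the longest.

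Other genes of the pathway were set beside the members from lists chosen with earlier results of these data known. Over all 12885 genes tested, 7.46% were lower and 7.51% higher at an unadjusted p under 0.05, for comparison with each list below. Of 19 assembly factors for complex I 0 passed edgeR's test in either direction, with 1 lower and 1 higher at an unadjusted p under 0.05, 13 of 19 were negative, and the median log2 fold change was -0.08. The most abundant of them, Ndufaf4 and Tmem70, stood at 0.08 (SE 0.16) and 0.12 (SE 0.14). Of the 7 ND subunits encoded in mitochondrial DNA, the hydrophobic proton-pumping part of the complex, 0 passed in either direction, with 2 lower at an unadjusted p under 0.05, 5 negative, 2 positive and a median of -0.04. The positive ones, mt-Nd4l and mt-Nd3, named after their values were seen, stood at 2.22 (SE 1.92) and 1.90 (SE 1.94) and were uneven within both groups. For mt-Nd4l there were 222.0, 72.9 and 5.27 CPM in irradiated libraries and 59.9, 2.45 and 2.80 CPM in untreated ones. Of the most abundant, mt-Nd1 had 2051, 1710 and 2141 CPM in irradiated libraries and 2134, 2551 and 2127 CPM in untreated ones, and mt-Nd5 had 1915, 1567 and 2208 CPM in irradiated libraries and 1881, 2226 and 1761 CPM in untreated ones. Both overlapped between the groups, at -0.21 (SE 0.15) and -0.04 (SE 0.16). The 7 together summed to 8603, 6341 and 7968 CPM in irradiated libraries and 8151, 9200 and 7721 CPM in untreated ones, with irradiated replicate 2 again lowest.

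Of 38 nuclear subunits of complexes II to V 0 passed, with 14 lower at an unadjusted p under 0.05, against 7.46% of all genes. Of the 38, 33 were negative, the median was -0.18, and irradiated libraries lay below untreated ones in 15, against 10.6% of all genes. These values stand next to 30 negative of 36, -0.21 and 13 for complex I, and a difference between the 2 sets was not tested. The transcripts of complexes II to V are also short, with a median of 1231.5 bases. In the shortest bin irradiated libraries lay below untreated ones in 20.8% of all genes. The most abundant members of complexes II to V, Atp5b and Atp5a1 of ATP synthase, stood at 0.02 (SE 0.13) and 0.01 (SE 0.13). Of 14 regulators of mitochondrial gene expression 0 passed, with 1 higher at an unadjusted p under 0.05 and a median of 0.03. The most abundant were Yy1 and Esrra, at -0.01 (SE 0.11) and 0.04 (SE 0.11). Ppargc1a, a coactivator of mitochondrial biogenesis named here after its values were seen, had 23.8, 20.6 and 26.3 CPM in irradiated libraries and 13.7, 20.3 and 17.3 CPM in untreated ones. Irradiated values were all higher, by a narrow margin over untreated replicate 2, at 0.47 (SE 0.14) and an edgeR adjusted p of 0.115. Of 20 genes of mitochondrial import and quality control 0 passed, with 2 lower at an unadjusted p under 0.05 and a median of -0.09, and Hspa9 and Vdac2, the most abundant, stood at 0.00 (SE 0.11) and -0.03 (SE 0.11).

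Markers of other cell types moved between these libraries. Skeletal muscle, which is rich in mitochondria, was represented by 8 markers whose sum was 508.3, 591.2 and 189.4 CPM in irradiated replicates 1, 2 and 3 and 599.8, 726.0 and 757.6 CPM in untreated replicates 1, 2 and 3. None was at 0 in any library, 0 of 8 passed, and 0 had an unadjusted p under 0.05. All 8 were negative with a median of -0.75, and irradiated libraries lay below untreated ones in 5, against 10.6% of all genes tested. Irradiated replicate 3 had the least muscle signal, and 1 library cannot show the part of muscle in the complex I values. Its complex I median lay between those of the other irradiated libraries, and without this library the members' median was -0.23. Of 6 duct markers 0 passed and 2 were lower at an unadjusted p under 0.05, with sums of 1627 to 1875 CPM in irradiated and 1906 to 2244 CPM in untreated libraries. All 6 were negative with a median log2 fold change of -0.34. Irradiated libraries lay below untreated ones in 2 of them, against 10.6% of all genes tested. Of 7 acinar markers 1 fell, Car6, a secreted carbonic anhydrase, with a log2 fold change of -0.79 (SE 0.18) and an edgeR adjusted p of 0.0329. At an unadjusted p under 0.05 there were 3 lower, and the list's median was -0.26. Prol1 stood apart at 2.10 (SE 1.27) through irradiated replicate 2, with 37.5, 442.4 and 32.8 CPM in irradiated libraries and 40.9, 38.3 and 40.1 CPM in untreated ones. The 7 acinar markers summed to 365322 to 463472 CPM in irradiated and 401438 to 485587 CPM in untreated libraries. Of the 6 T cell and 5 B cell markers 1 each passed as higher, Cd5 and Bank1, and all were positive, with medians of 1.84 and 1.98. At an unadjusted p under 0.05 there were 5 and 3 higher. Irradiated libraries lay above untreated ones in 5 and 5, against 10.6% of all genes tested. T cell and B cell sums were 21.5 to 29.3 and 25.1 to 25.9 CPM in irradiated libraries and 0.874 to 9.96 and 0.350 to 12.6 CPM in untreated ones. Cd3g, Cd8a, Cd79a and Cd79b were at 0 in untreated replicate 2. Of the macrophage, endothelium, fibroblast and nerve lists 0 markers passed. Of 5 fat markers 0 passed, with sums of 111.9 to 189.4 CPM in irradiated and 145.8 to 298.2 CPM in untreated libraries. Brown fat markers were near the floor, with Ucp1 at 0 to 1.598 CPM in irradiated and 0.0667 to 0.787 CPM in untreated libraries. The part of muscle, acinar, duct, fat and immune cells in the complex I values was not tested.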

How the data were processed

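RNA from parotid glands was sequenced from 3 irradiated and 3 untreated FVB mouse samples. The authors deposited 1 table per library, holding raw read counts for Ensembl genes, and HISAT2, HTSeq, bcl2fastq and the build mm10 are named in the submitters' processing notes; versions, annotation release and strand setting are not given in the sources used here. Reads in rows naming no gene (32.4% to 40.7% per library) were left out. Symbols, positions and lengths came from GENCODE M21 (mm10), with 52403 of 52636 genes matched.

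The members and gene lists were chosen with earlier results of these data known. Tests used edgeR 4.0.16 (R 4.3.3) with TMM, filterByExpr at a minimum count of 10, the quasi-likelihood test with robust shrinkage, and Benjamini-Hochberg adjustment over 12885 genes at a threshold of 0.05. SE was the fold change divided by the root of F. Members named in full were the called gene, the 8 of smallest p, core subunits, the level extremes, Ndufa4, Ndufa4l2 and the largest rises. 1 tested member is not reported singly here and enters the summaries only. Of other lists, called genes or the 2 most abundant were named. The pipeline was tested on simulated counts, with 250 genes at each changed ratio. It called 0.4% of genes set to a ratio of 0.8, 10.8% at 1/1.5 and 50.4% at 0.5. Small changes would therefore mostly not be called here, and a gene that did not pass is not shown to be unchanged.

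Because the counting strand is unknown and 15 members overlap exons on the other strand, those counts may be off in either direction. Reads that could not be given to a single gene were set aside as ambiguous, at 8.22% to 9.83% per library. How many of them came from members was not tested. By BLAST 2.17.0, 9 members (Ndufa12, Ndufab1, Ndufb3, Ndufb4, Ndufb9, Ndufb11, Ndufs3, Ndufs5 and Ndufs6) match a near-identical transcript of another gene. The threshold was at least 95% over 200 bases. Counts of these members are therefore uncertain, with Ndufb9 a separate case. For Ndufb9 the other gene is Gm49356, which shares 201 bases of its exons on the same strand and is not listed in the count tables. The match covers 202 bases, about the length of the shared exons, so a separate copy of Ndufb9 is not shown. In all, 3 members overlap exons of another gene on the same strand. Alternatives were DESeq2 1.42.0, limma-voom (limma 3.58.1), other scales and filters, a replicate block, length and GC offsets, and leaving out each library.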

Additional observations from a re-analysis of the deposited data

How the results depend on the processing

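The number of complex I genes called lower, 1, was 0 with DESeq2, limma-voom, edgeR without robust shrinkage, library totals, the replicate block, length and GC offsets, and these offsets with the block. Leaving out 1 library gave 0 to 1. None was called higher in any setting. The members' median log2 fold change, -0.21, was -0.065 with library totals, -0.080 with length and GC offsets, -0.078 with offsets and replicate block, and -0.25 to -0.15 when 1 library was left out. Over all genes, 45 lower and 84 higher became 70 lower with DESeq2, 5 and 20 with limma-voom, 5 and 21 without robust shrinkage, 22 and 260 with library totals, 239 and 279 without a count filter, 14 and 39 with the replicate block, and 14 to 72 lower and 31 to 83 higher with 1 library left out. The median level in untreated glands, 16.3 CPM per kilobase by union of exons, was 24.7 by longest transcript and 27.7 by principal transcript, the last chosen after seeing the data. Same-numbered libraries deviated together with correlations of 0.04, -0.13 and -0.10, so the numbers were not taken as pairs.

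Ndufa2 kept its call with RLE size factors, without a count filter and without untreated replicate 1. Its adjusted p was 0.0578 with DESeq2, 0.0891 with limma-voom, 0.0846 without robust shrinkage, 0.137 with library totals and 0.088 with the replicate block. Of 525 pairs of a gene and a setting, 489 kept direction and side of the threshold and 24 changed sign, none of them called. Without a count filter Ndufa1 stood at -0.0084 and Ndufa12 at -0.00067, and with the replicate block Ndufa1 stood at -0.0034. With library totals Ndufb3 stood at 0.10, Ndufb4 at 0.031 and Ndufb7 at 0.064. With offsets Ndufa5, Ndufa11, Ndufb3 and Ndufb4 stood at 0.022, 0.028, 0.11 and 0.042, and with offsets and replicate block at 0.020, 0.028, 0.10 and 0.046. With 1 library left out Ndufa1 ranged from -0.063 to 0.030, Ndufa9 from -0.053 to 0.15, Ndufa10 from -0.030 to 0.19, Ndufa12 from -0.086 to 0.069, Ndufb3 from -0.19 to 0.036 and Ndufb7 from -0.17 to 0.0037. The causes were not tested. Depth limits small changes: Ndufb2, with 31 to 100 counts in a library, had the widest error, followed by Ndufs5 with 89 to 226 counts and Ndufb6 with 84 to 157.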
